A study of Mus musculus with 3 samples.

Results

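Cortical thymic epithelial cells (cTEC) were set against medullary thymic epithelial cells (mTEC), the epithelium of the inner thymus, by their messenger RNA levels. Both populations came from the pooled thymi of 14 C57BL/6 mice at postnatal day 7, with no genetic change or treatment, and each gave 1 sequencing library. Cells free of the leukocyte antigen CD45 and carrying EpCAM were sorted by the antigen Ly51 and by binding of the lectin UEA1. Those with Ly51 and without UEA1 were taken as cTEC, and those with UEA1 and without Ly51 as mTEC. A further library of the series, from epidermal cells of 7 pooled newborn mice (skinEC, sorted as EpCAM-positive and CD11c-negative), serves here only as a further level beside the thymic values. Levels are in RPKM, that is, reads scaled by gene length and by the mapped reads of a library, so that genes of different length can be set side by side. The comparison holds the 16689 genes, of 22609 symbols in the table, that reached 1 RPKM in cTEC or in mTEC. A gene is called higher or lower in cTEC when (RPKM + 1) in cTEC is at least 4-fold above or below (RPKM + 1) in mTEC, a log2 ratio of 2 or more, or of -2 or less. The added 1 RPKM understates the difference of low genes. With 1 pooled library a side there is no replicate check, and every difference below is a size in these libraries without a test. In such bulk libraries, fewer cells of a type and less RNA per cell cannot be told apart.

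Developing thymocytes meet cTEC first, which display self peptides made by their own proteases and proteasome and supply Notch ligand and cytokines. Thymocytes that pass move to the medulla, where mTEC display proteins otherwise made in peripheral organs, so that self-reactive cells are removed or become regulatory T cells. Medullary epithelium is a mixture of cell states, among them cells that express the regulator Aire and cells that resemble tuft, secretory, neuroendocrine or cornified epithelium of other organs. The best known markers of both populations are left aside below, in favour of the enzymes, receptors, signalling genes and transcription factors around them.

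By the step size of the lowest values, the libraries held about 56600000 reads for cTEC and 55490000 for mTEC. At that depth a 1 kb gene with 3 reads has 0.053 RPKM in cTEC and 0.0541 RPKM in mTEC. Of 6 genes behind the sorting markers 0 were called higher and 2 lower in cTEC, where the shares of all genes compared were 2.72% and 15.4%. Enpep, which encodes Ly51, was at 44.97 RPKM in cTEC against 11.6 in mTEC, and Fut2, a fucosyltransferase gene of the kind that makes the UEA1 ligand, was at 0.728 RPKM in cTEC against 35.1 in mTEC. Its relative Fut1 was at 10.9 RPKM in cTEC against 38.4 in mTEC, and Epcam at 223 RPKM in cTEC against 398 in mTEC. Ptprc, which encodes CD45, was the other gene called lower, at 1.07 RPKM in cTEC against 8.01 in mTEC, and Itgax, which encodes CD11c, was at 0.18 RPKM in cTEC against 1.07 in mTEC. Markers of myeloid cells and B cells lay on the mTEC side, while most thymocyte markers stayed within 2-fold. Of 18 myeloid and dendritic cell markers compared, 0 were called higher and 15 lower in cTEC. Summed levels, here and below, take in every gene of a list with an RPKM value, also those under 1 RPKM in both thymic libraries. The myeloid and dendritic list summed to 118 RPKM in cTEC against 1036 in mTEC and 10.7 in skinEC. Lyz2 (0.685 RPKM in cTEC against 283 in mTEC) and Laptm5 (2.41 RPKM in cTEC against 459.8 in mTEC) made up most of the mTEC sum. The Fc receptor gene Fcgr3 was listed at 0 in cTEC, with 4.45 RPKM in mTEC, and the dendritic cell receptor gene Xcr1 was listed at 0 in cTEC, with 0.874 RPKM in mTEC. Of 11 B cell markers compared, 0 were called higher and 5 lower in cTEC. The B cell list of 12 genes summed to 5.08 RPKM in cTEC against 72.95 in mTEC. Cd79b was at 0.826 RPKM in cTEC against 35.7 in mTEC, and Blk, Fcrla and Vpreb3 were listed at 0 in cTEC. Of 20 thymocyte markers 0 were called higher and 3 (15%) lower in cTEC, and 15 stayed within 2-fold. They summed to 55.5 RPKM in cTEC against 114 in mTEC, with none listed at 0. Cd3e was at 1.03 RPKM in cTEC against 1.51 in mTEC. Cd4 was at 0.314 RPKM in cTEC against 8.13 in mTEC, and Tcf7 at 7.85 RPKM in cTEC against 38.6 in mTEC. Fibroblast markers summed to 109 RPKM in cTEC against 343 in mTEC, with 2 of 13 called higher and 6 lower in cTEC. The part these cells play in the genes lower in cTEC was not tested.

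Far more genes lay above the 4-fold line on the mTEC side than on the cTEC side. In cTEC 454 genes were called higher, which is 2.72% of the genes compared, and 2569 were called lower, which is 15.4%. A further 57.8% stayed within 2-fold, and the median log2 ratio of all genes compared was -0.07. The genes higher in cTEC were strong genes that mTEC also transcribed, with a median of 40.9 RPKM in cTEC against 4.89 in mTEC and 6.49 in skinEC, and 9.69% of them were under 1 RPKM in mTEC. The genes lower in cTEC were nearly silent there, with a median of 0.269 RPKM in cTEC against 12.1 in mTEC and 0.185 in skinEC, and 72.9% of them were under 1 RPKM in cTEC. The excess on the mTEC side was largest among genes of low level. Where the higher library had 3 to 10 RPKM, 40 genes were higher and 1130 lower in cTEC, and from 300 RPKM upward 23 were higher and 36 lower. Genes whose higher library was under 3 RPKM cannot reach 4-fold on this scale.

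**Figure D1:**
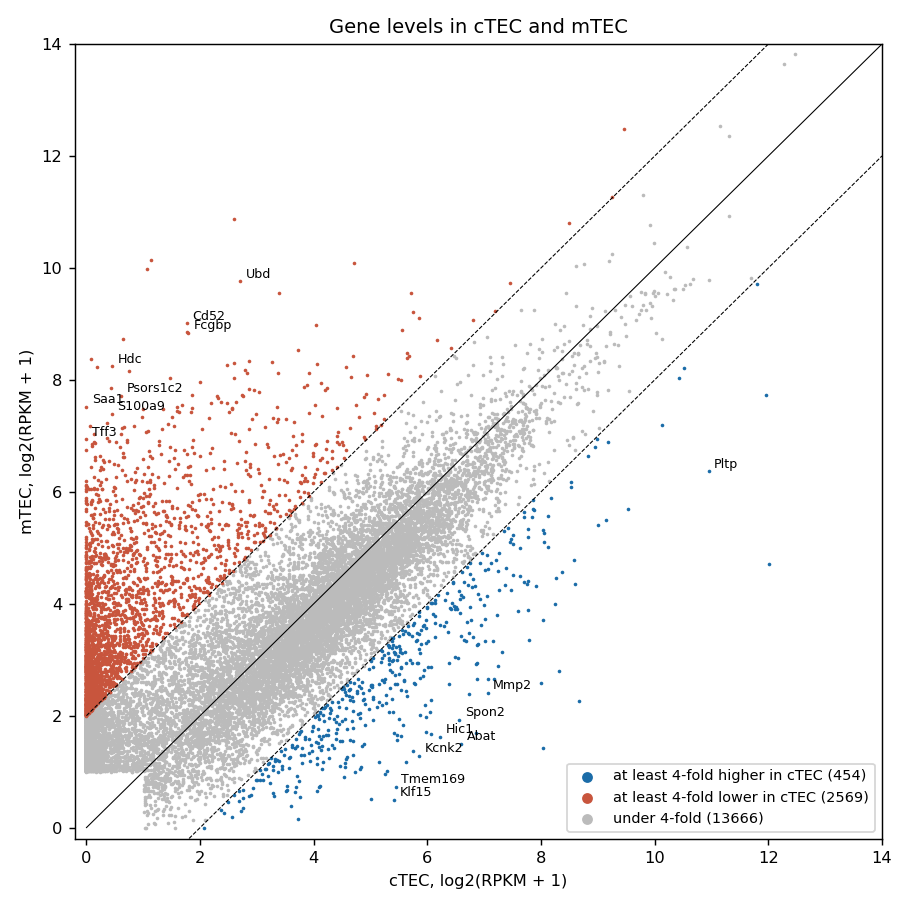
Each point is 1 of the 16689 genes, with its cTEC level on the horizontal and its mTEC level on the vertical axis, both as log2(RPKM + 1), and with the 8 genes of largest ratio on each side by the naming rule marked. Solid and dashed lines mark equal levels and 4-fold differences. The 2569 genes lower in cTEC pile up near 0 on the cTEC axis, while the 454 genes higher in cTEC reach higher on the cTEC axis, with 9.69% of them under 1 RPKM in mTEC.

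**Figure D2:**
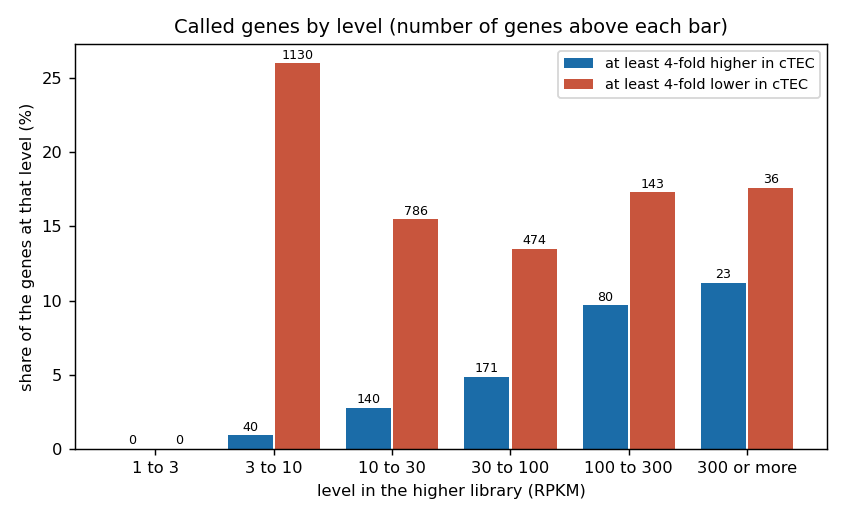
Bars give the share of genes called higher (blue) and lower (red) in cTEC among all genes whose higher library lay in each RPKM range, with the number of genes above each bar. From 3 to 10 RPKM 40 genes were higher and 1130 lower in cTEC, and at 300 RPKM or more 23 and 36.

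Leaving out the best known markers, the 20 genes with the largest ratio toward cTEC among those at 20 RPKM or more included several enzymes of small molecules. The largest ratio belonged to Abat (Entrez 268860), which encodes the transaminase that breaks down the transmitter GABA, at 95.6 RPKM in cTEC against 1.82 in mTEC and 1.17 in skinEC, a log2 ratio of 5.10. Fmo1, a flavin-containing monooxygenase gene, was at 143 RPKM in cTEC against 5.32 in mTEC and 0.623 in skinEC. Abat and Fmo1 thus stood apart in cTEC from both other epithelia. Psat1, which encodes the aminotransferase of serine synthesis, was at 262 RPKM in cTEC against 12.02 in mTEC and 142 in skinEC, and so was also high in skin. Pltp, which encodes a secreted phospholipid transfer protein of lipoproteins, was the most abundant of the 20, at 1976 RPKM in cTEC against 81.6 in mTEC and 78.9 in skinEC. Several of the others act outside the cell. The gelatinase gene Mmp2 was at 132 RPKM in cTEC against 4.32 in mTEC and 13.5 in skinEC. The matrix protein gene Spon2 was at 93.3 RPKM in cTEC against 2.804 in mTEC, and the secreted lectin gene Clec11a at 38.3 RPKM in cTEC against 1.005 in mTEC. Aebp1, which encodes a secreted protein of fibrous matrix, stood at 62.1 RPKM in cTEC against 2.25 in mTEC. Receptor, channel and adhesion genes made up a further group, low in skin except for Kcnk2. The endothelin receptor gene Ednrb was at 31.1 RPKM in cTEC against 0.417 in mTEC and 0.02503 in skinEC. The galanin receptor gene Galr2 was at 37.1 RPKM in cTEC against 0.948 in mTEC and 0.378 in skinEC, and the scavenger receptor gene Scarf2 at 105 RPKM in cTEC against 4.22 in mTEC and 0.125 in skinEC. Cdh4, the gene of retinal cadherin, reached 150.3 RPKM in cTEC against 6.39 in mTEC and 0.895 in skinEC, and the potassium channel gene Kcnk2 reached 56.96 RPKM in cTEC against 1.43 in mTEC and 9.75 in skinEC. Among transcriptional regulators, Klf15, a Kruppel-like factor gene, was at 41.7 RPKM in cTEC against 0.409 in mTEC and 4.88 in skinEC, and Hic1, a zinc finger repressor gene, was at 73.6 RPKM in cTEC against 2.08 in mTEC and 0.0862 in skinEC. Tmem169, Lgi2, Neurl2, Pkhd1l1 and the basement membrane gene Frem2 completed the 20, with log2 ratios from 4.38 (Frem2) to 4.72 (Tmem169). Of these, Frem2 was as high in skin (57.96 RPKM) as in cTEC (52.4 RPKM).

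On the mTEC side, the 20 genes of the largest ratio included genes known from gut, pancreas, nerve and inflammation. Hdc, which encodes the enzyme that makes histamine, was at 0.371 RPKM in cTEC against 301 in mTEC and 0.1204 in skinEC, a log2 ratio of -7.78. Ubd, which encodes a ubiquitin-like modifier induced by inflammatory cytokines, was at 5.54 RPKM in cTEC against 864 in mTEC and 0.229 in skinEC, the highest mTEC level among the 20. One group was genes of digestive epithelium. Fcgbp, a mucus component gene, was at 2.46 RPKM in cTEC against 457 in mTEC. The ileal bile acid-binding protein gene Fabp6 was at 0.0913 RPKM in cTEC against 129 in mTEC, and the pepsinogen gene Pgc at 0.0638 RPKM in cTEC against 112 in mTEC. Cdx1, an intestinal transcription factor gene, stood at 0.283 RPKM in cTEC against 149 in mTEC. The trefoil factor gene Tff3 was listed at 0 in cTEC and in skinEC, with 122 RPKM in mTEC. Peptide hormone genes followed. Pyy, the gut peptide YY gene, was at 0.07096 RPKM in cTEC against 115 in mTEC, and Iapp, the islet amylin gene, at 0.2796 RPKM in cTEC against 124 in mTEC. The tachykinin gene Tac2 and the acute phase gene Saa1 were listed at 0 in cTEC, with 106 and 182 RPKM in mTEC. Genes with known use in leukocytes were among the 20 as well. Cd52, a leukocyte surface glycoprotein gene, was at 2.39 RPKM in cTEC against 516 in mTEC. The neutrophil calprotectin gene S100a9 was at 0.362 RPKM in cTEC against 167 in mTEC, and the neutrophil antigen gene Cd177 at 0.104 RPKM in cTEC against 117 in mTEC. Il4i1, an amino acid oxidase gene, stood at 1.79 RPKM in cTEC against 262 in mTEC, and Ncf1, an NADPH oxidase subunit gene, at 0.578 RPKM in cTEC against 142 in mTEC. The myeloid markers, at 118 RPKM in cTEC against 1036 in mTEC in sum, lie on the same side, and their part in these levels was not tested. Psors1c2, Vmo1, the trypsin inhibitor gene Spink3 and the synuclein gene Sncg completed the 20, with log2 ratios from -7.11 (Psors1c2) to -6.49 (Sncg).

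At the other extreme stood abundant genes with nearly the same level in both populations, whose larger value was at most 25% above the smaller. The highest of these was the translation elongation factor gene Eef2, at 1164 RPKM in cTEC against 974 in mTEC. The membrane protein gene Itm2b was at 752 RPKM in cTEC against 722 in mTEC, the ATP synthase subunit gene Atp5b at 631 RPKM in cTEC against 610.5 in mTEC, and Psap, which encodes the precursor of the lysosomal saposins, at 506 RPKM in cTEC against 495 in mTEC. The histone gene H3f3b, the thioredoxin gene Txn1, the annexin gene Anxa5 and the parathymosin gene Ptms followed, with log2 ratios from -0.24 (Txn1) to 0.09 (Anxa5). In skinEC Eef2 and Atp5b stood above both thymic levels, at 2345 and 1228 RPKM.

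The promoters of the called genes differed in their base composition, which the calls did not use. CpG dinucleotides are dense at the start of broadly used genes and sparse at many tissue-restricted ones, and the TATA box is a core promoter element placed shortly upstream of the start. RefSeq windows of 300 bases (250 before to 50 after each annotated start, build GRCm38.p6, a later build than the mm9 named for these files) are printed for 4 genes, chosen after their values were seen to show the CpG-rich and the CpG-poor kind. Capitals mark each CG, and TATAAA where it lies 20 to 40 bases before the start. The windows of Klf15 (chr6:90462326-90462625, plus strand) and Scarf2 (chr16:17797032-17797331, plus strand), both higher in cTEC, have CpG ratios of 1.18 and 0.82. The ratio is the observed CpG count over that expected from the C and G content. The windows of Psors1c2 (chr17:35532951-35533250, plus strand) and Vmo1 (chr11:70514567-70514866, minus strand), both lower in cTEC, have CpG ratios of 0.225 and 0.111, and hold TATAAA 29 and 27 bases before the start.
Klf15: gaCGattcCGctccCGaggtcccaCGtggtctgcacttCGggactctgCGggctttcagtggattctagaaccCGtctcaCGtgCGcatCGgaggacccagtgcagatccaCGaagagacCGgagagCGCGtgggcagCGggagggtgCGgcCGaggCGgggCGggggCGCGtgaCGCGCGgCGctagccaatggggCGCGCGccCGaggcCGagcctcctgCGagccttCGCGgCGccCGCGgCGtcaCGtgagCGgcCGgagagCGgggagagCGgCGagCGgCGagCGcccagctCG
Scarf2: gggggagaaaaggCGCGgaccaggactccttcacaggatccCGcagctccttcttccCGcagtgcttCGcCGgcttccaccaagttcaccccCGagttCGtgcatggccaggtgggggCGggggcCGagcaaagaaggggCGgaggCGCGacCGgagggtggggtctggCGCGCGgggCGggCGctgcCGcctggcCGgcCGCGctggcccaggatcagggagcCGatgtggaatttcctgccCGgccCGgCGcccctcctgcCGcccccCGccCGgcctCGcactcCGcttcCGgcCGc
Psors1c2: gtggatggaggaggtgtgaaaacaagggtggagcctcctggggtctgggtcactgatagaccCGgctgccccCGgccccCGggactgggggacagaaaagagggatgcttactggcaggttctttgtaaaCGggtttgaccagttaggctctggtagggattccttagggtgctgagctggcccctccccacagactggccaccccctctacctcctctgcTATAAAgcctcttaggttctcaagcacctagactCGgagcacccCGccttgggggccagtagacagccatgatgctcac
Vmo1: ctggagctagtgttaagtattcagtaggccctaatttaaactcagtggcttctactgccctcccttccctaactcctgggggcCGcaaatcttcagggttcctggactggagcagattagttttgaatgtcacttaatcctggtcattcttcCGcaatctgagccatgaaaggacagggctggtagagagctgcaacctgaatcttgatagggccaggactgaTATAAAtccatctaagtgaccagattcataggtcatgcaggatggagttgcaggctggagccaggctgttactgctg

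Klf15 and Scarf2 carry 47 and 34 CpG dinucleotides in these windows, and Psors1c2 and Vmo1 carry 6 and 2. Of the genes of largest ratio named above, 14 of those higher in cTEC have a window in the table, with a median CpG ratio of 0.592, and 16 of those lower in cTEC, with a median of 0.168. All 16 of the lower genes were under a ratio of 0.5, and 4 of them held the upstream TATAAA (Psors1c2, Cd177, Pgc and Vmo1). Of the 14 higher genes 6 were under 0.5 and 0 held it. Clec11a (0.195) and Galr2 (0.262) are cTEC-side genes of the CpG-poor kind. A match to these letters is a description of the window, not a site.

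The same contrast was read over larger sets. The promoter table is not complete, and over all genes compared it holds a window for 74% of those higher in cTEC and 73.6% of those lower, too few for a comparison. On the 16 chromosomes where at least 80% of the protein-coding genes have a window, and at 10 RPKM or more in either library, 80.1% of the higher, 80.8% of the lower and 86.2% of the other genes have one. This restriction was chosen after the values of all genes had been seen. The median CpG ratio was 0.698 over 225 windows of genes higher in cTEC, 0.335 over 840 windows of genes lower in cTEC and 0.804 over 4841 windows of the others. The genes higher in cTEC thus stood nearer to the others than did the genes lower in cTEC. With genes from 1 RPKM the medians were 0.684, 0.313 and 0.747, and the share under a ratio of 0.5 was 24.5%, 66.9% and 24%, against 24%, 63.6% and 12.4% at 10 RPKM or more. TATAAA at 20 to 40 bases before the start was in 1.33% of the windows of higher genes, 8.69% of those of lower genes, 0.682% of the others and 2.22% of all 27025 windows of the table. On either strand anywhere in the window, TATAAA was in 7.56%, 17.1%, 6.09% and 14.2% of the same sets. TGAGTCA, the element bound by AP-1 factors, was in 2.22% of the windows of higher genes, 7.5% of those of lower genes, 3.06% of the others and 5.17% of all windows, again on either strand. Read the other way, 60.4% of the 540 genes with a CpG ratio under 0.25 were called lower in cTEC and 3.7% higher, while of the 800 genes with a ratio of 1 or more 3% were called in each direction. The genes lower in cTEC also had shorter coding sequences. Without the restriction above, the median coding length was 1520 bases for genes higher in cTEC, 1180 for those lower and 1392 for others. These lengths cover at least 92.9% of each set, and 8.14%, 19.9% and 12.1% of them were under 600 bases. With the restriction the medians were 1470, 1120 and 1365 bases.

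**Figure D3:**
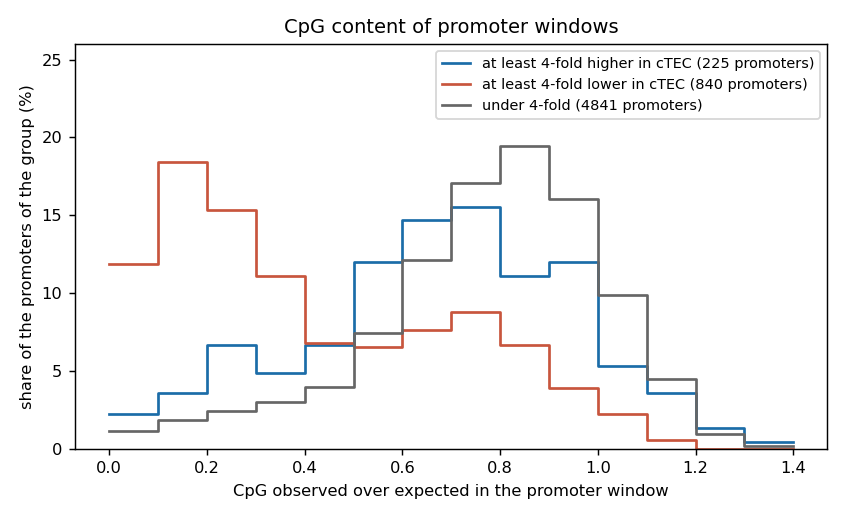
Histogram of the CpG observed over expected ratio in promoter windows of genes higher in cTEC (blue, 225 windows), lower in cTEC (red, 840) and called in neither direction (grey, 4841), each as a share of its group. Genes lower in cTEC are most frequent below a ratio of 0.4, and the other groups above 0.5.

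Called genes also lay beside each other on the chromosomes. In the gene order of the later RefSeq build, used only to tell neighbours, 88 of 444 genes higher in cTEC (19.8%) had a neighbour called higher too, against 4.9% of all other genes. For the genes lower in cTEC it was 1216 of 2526 (48.1%), against 23.4% of all other genes. The longest run of neighbours lower in cTEC was the Klk1b cluster of glandular kallikreins on chromosome 7, with 14 genes, followed by 12 kallikrein genes from Klk14 to Klk15 on the same chromosome. Kallikreins are secreted serine proteases of glands and skin, and the close copies of the Klk1b genes make their single values uncertain. The runs higher in cTEC reached 3 genes. They included Mmp2, Lpcat2 and Capns2 on chromosome 8, Pecr, Tmem169 and Xrcc5 on chromosome 1, and Srp68, Galr2 and Exoc7 on chromosome 11. Klf15 and Aldh1l1 are neighbours on chromosome 6 and were both among the cTEC-side genes. Overlapping neighbours can share reads, and the strand setting of the counts is not given in the sources used here.

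Gene groups were then read through 64 lists of pathways, complexes and cell types with 1428 genes in the comparison, of which 60 were called higher and 309 lower in cTEC. The median log2 ratio was above 0 in 12 lists and below 0 in 52. Shares of a list have to be read against 2.72% higher and 15.4% lower among all genes compared.

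**Figure D4:**
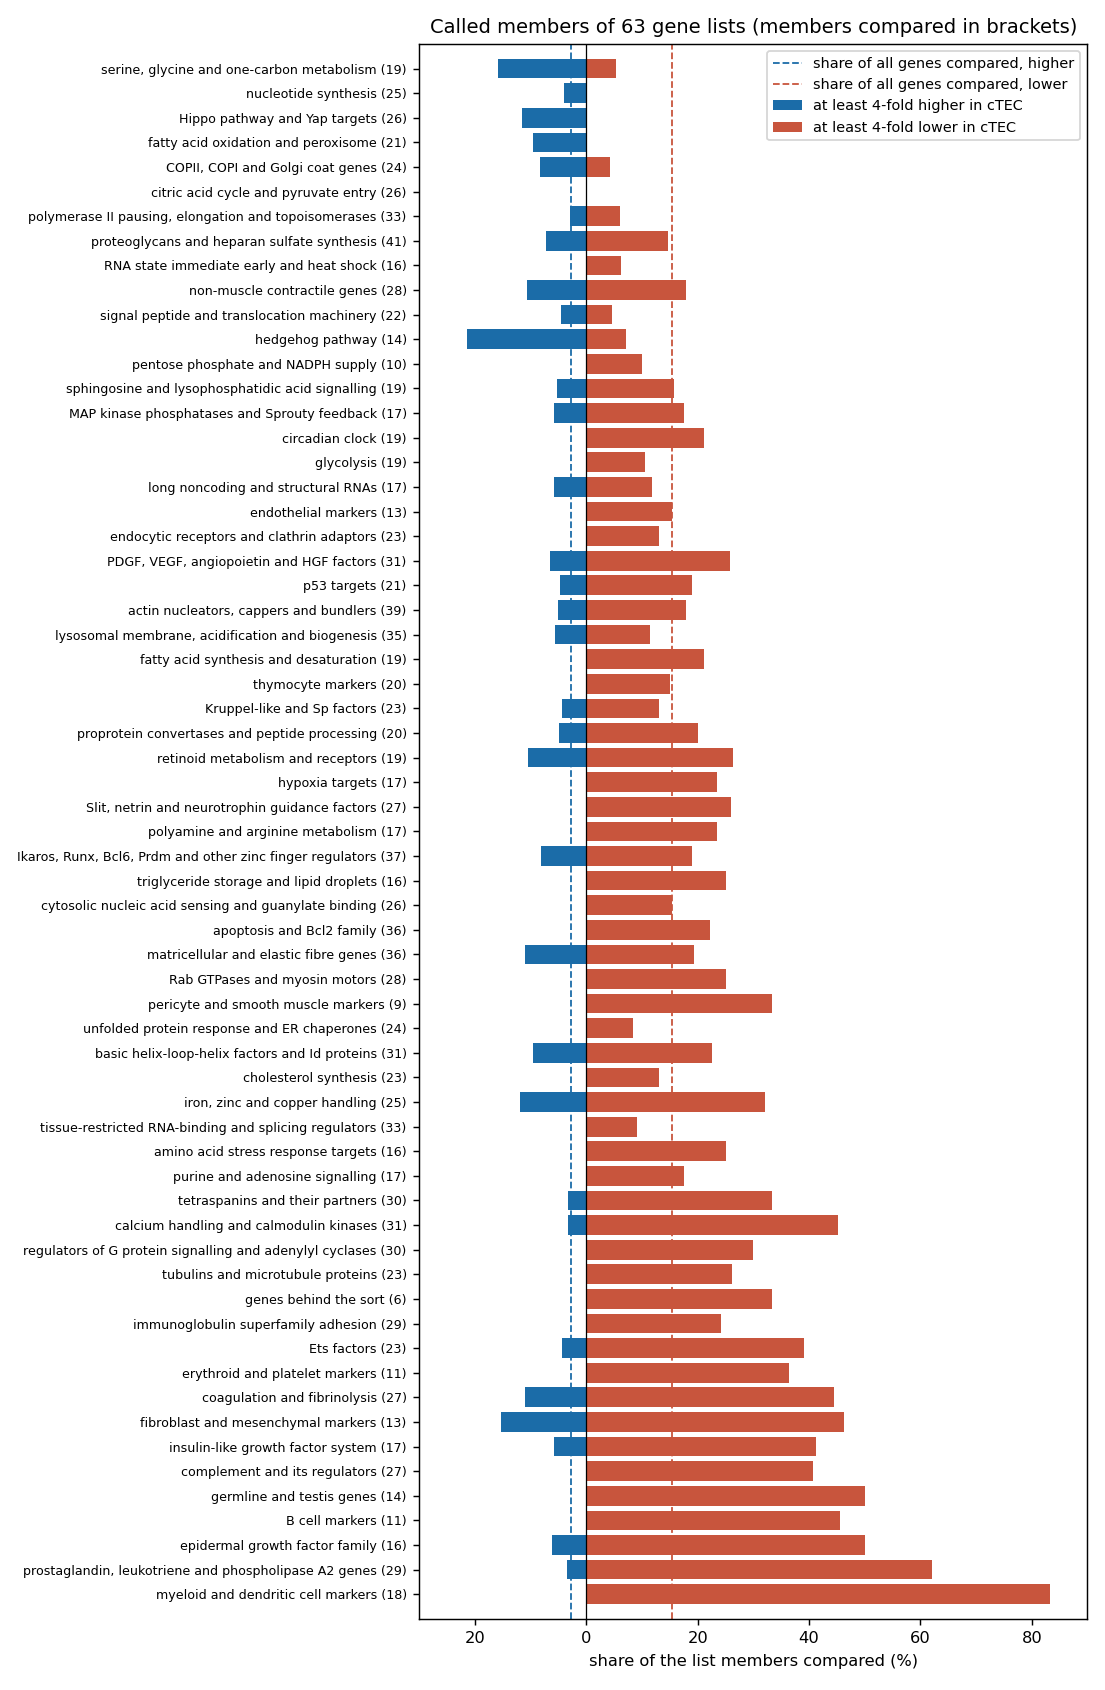
For 63 of the 64 gene lists, with the number of members compared in brackets, bars give the share of members called higher in cTEC (blue, drawn to the left) and lower in cTEC (red, drawn to the right). Lists are ordered by median log2 ratio with the highest at the top, and dashed lines mark the shares among all 16689 genes, 2.72% and 15.4%. Lists of serine, one-carbon and nucleotide metabolism stand at the top, and myeloid markers and prostaglandin and leukotriene genes at the bottom.

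Genes that make and sense prostaglandins and leukotrienes, lipid mediators of inflammation, lay on the mTEC side at most steps. Of 29 members compared, 1 was called higher and 18 lower in cTEC, with a median log2 ratio of -2.65. The inducible cyclooxygenase gene Ptgs2 was at 0.0895 RPKM in cTEC against 75.6 in mTEC and 1.13 in skinEC, and Ptgds, which encodes a prostaglandin D synthase, was at 0.527 RPKM in cTEC against 129 in mTEC and 0.356 in skinEC. On the leukotriene branch, Alox5ap encodes the protein that presents arachidonic acid to 5-lipoxygenase and was at 5.69 RPKM in cTEC against 211 in mTEC and 3.31 in skinEC. Ltc4s, the leukotriene C4 synthase gene, was at 1.02 RPKM in cTEC against 78.3 in mTEC and 0.7002 in skinEC. Among lipoxygenase genes, Alox12e was at 15.4 RPKM in cTEC against 506 in mTEC and Alox15 at 1.74 RPKM in cTEC against 92.2 in mTEC. The member that went the other way was Hpgd, which encodes the dehydrogenase that inactivates prostaglandins, at 147 RPKM in cTEC against 26.4 in mTEC and 0.7602 in skinEC. Lta4h (51.3 RPKM in cTEC against 35.2 in mTEC) and Ptges3 (29.5 RPKM in cTEC against 28.02 in mTEC) stayed within 2-fold. Myeloid cells express several of these genes, and their markers summed to 118 RPKM in cTEC against 1036 in mTEC. Their part in these levels was not tested.

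Receptors and ligands of growth factors were split between the populations. In the epidermal growth factor family 1 of 16 members was called higher and 8 lower in cTEC, with a median of -1.99. The receptor gene Egfr was the higher one, at 49.7 RPKM in cTEC against 11.2 in mTEC and 41.9 in skinEC. Its relative Erbb2 was at 9.47 RPKM in cTEC against 60.1 in mTEC and 88.02 in skinEC, and Erbb3 at 1.32 RPKM in cTEC against 31.7 in mTEC and 63.1 in skinEC. Ligand genes stood with Erbb2 and Erbb3 on the mTEC side. Nrg1 was at 0.7897 RPKM in cTEC against 19.7 in mTEC, and Tgfa at 0.359 RPKM in cTEC against 12.9 in mTEC. Epgn was at 0.0311 RPKM in cTEC against 8.6 in mTEC, and Hbegf at 0.469 RPKM in cTEC against 6.84 in mTEC. Areg and Ereg, further ligand genes, were listed at 0 in cTEC, with 12.3 and 3.38 RPKM in mTEC. Egfr thus stood opposite to all 6 ligand genes called.

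Insulin-like growth factor genes showed a like split, with 1 of 17 called higher and 7 lower in cTEC. Igf1, the ligand gene induced by growth hormone, was at 0.0904 RPKM in cTEC against 10.4 in mTEC, and the fetal ligand gene Igf2 at 3.38 RPKM in cTEC against 27.6 in mTEC. The binding protein gene Igfbp5 was at 6.02 RPKM in cTEC against 104 in mTEC, opposite to Igfbp7 at 48.3 RPKM in cTEC against 6.68 in mTEC. The receptor gene Igf1r (27.9 RPKM in cTEC against 10.8 in mTEC) and the adaptor gene Irs2 (39.04 RPKM in cTEC against 13.3 in mTEC) stayed under 4-fold. Among the factors of vessels and mesenchyme 2 of 31 members were higher and 8 lower in cTEC. Gas6 encodes a ligand that bridges dying cells to the receptor kinases Tyro3, Axl and Mertk, and was one of the most abundant cTEC-side genes of the lists, at 1123 RPKM in cTEC against 145 in mTEC and 168 in skinEC. Pros1, which encodes the related ligand protein S, was at 40.4 RPKM in cTEC against 9.07 in mTEC. Receptor and ligand genes on the mTEC side were Kit, the stem cell factor receptor gene, at 3.37 RPKM in cTEC against 46.6 in mTEC, and Hgf, the hepatocyte growth factor gene, at 0.148 RPKM in cTEC against 7.43 in mTEC.

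**Figure D5:**
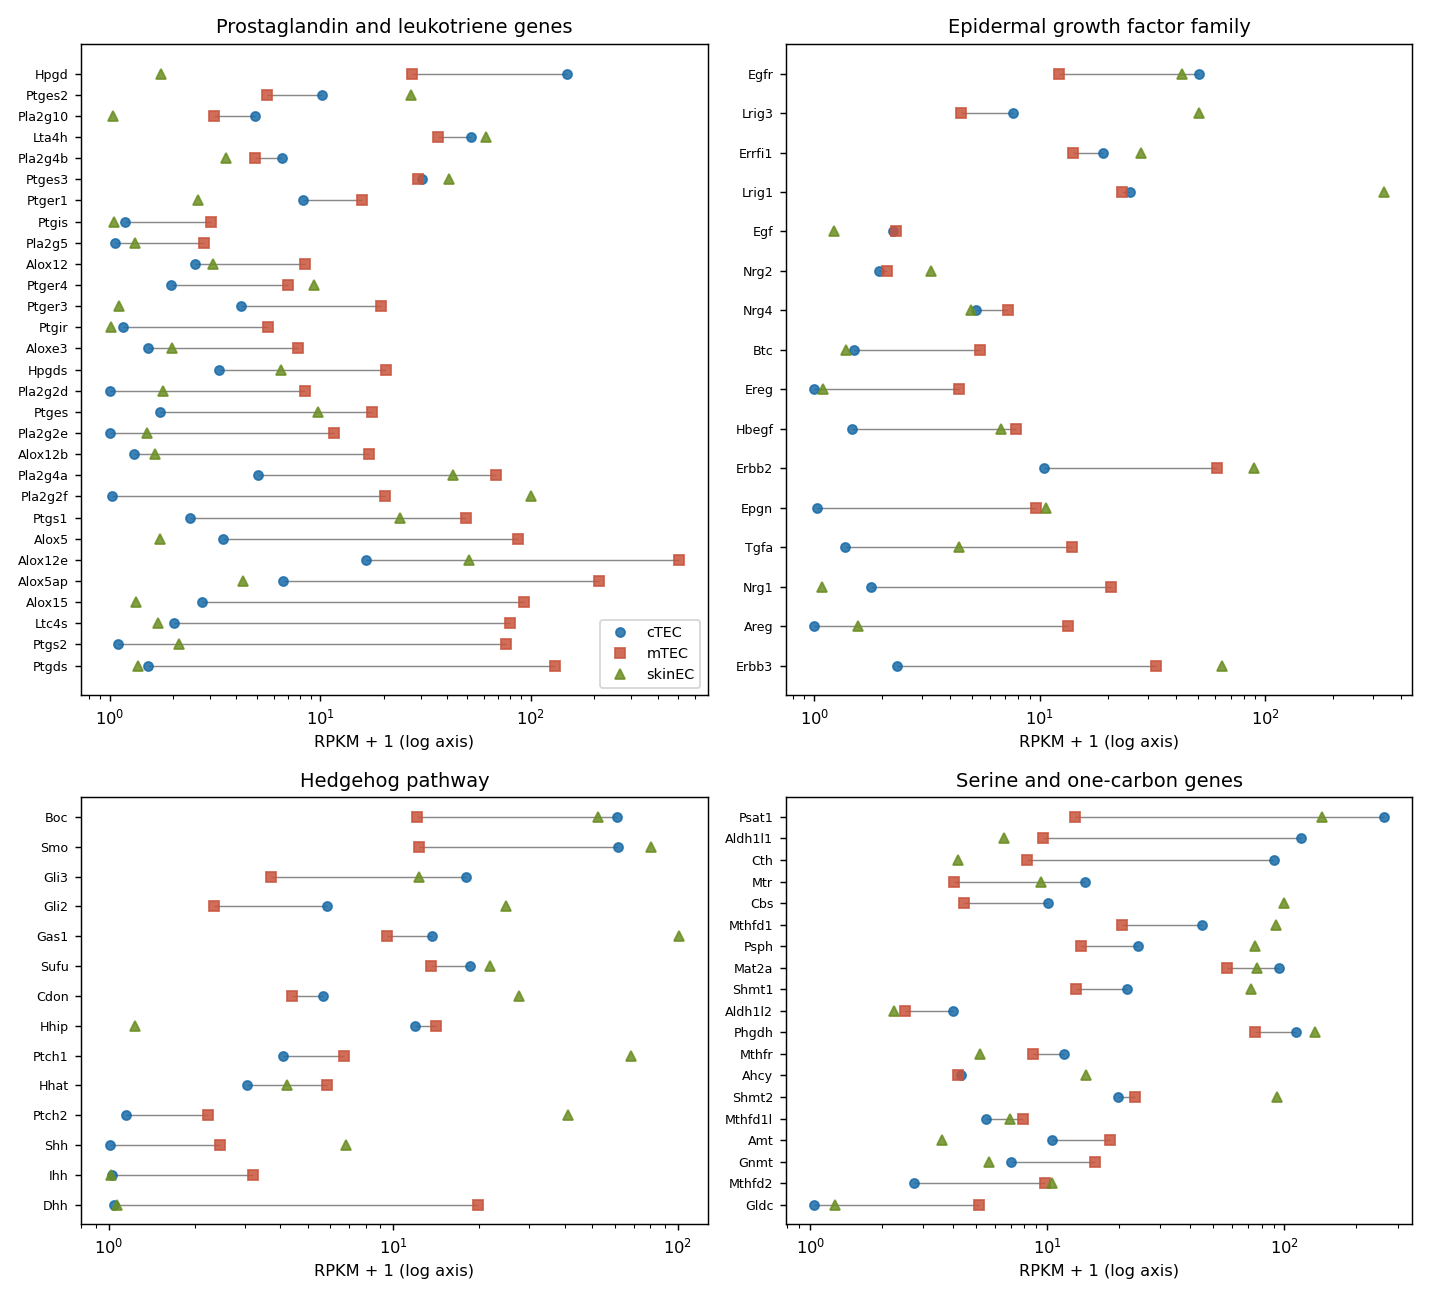
Levels of every compared member of 4 lists in cTEC (blue circles), mTEC (red squares) and skinEC (green triangles), as RPKM + 1 on a log axis, with a line between the thymic values. Genes are ordered by their log2 ratio with the highest at the top. Hpgd, Egfr, Gli3 and Psat1 are called higher in cTEC, and the lines of Ptgds, Erbb3, Dhh and Gldc run toward mTEC at the bottom.

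Parts of the hedgehog and Hippo pathways were higher in cTEC. Hedgehog ligands act through the membrane protein Smoothened and the Gli transcription factors. Smo, which encodes Smoothened, was at 60.5 RPKM in cTEC against 11.3 in mTEC and 79.1 in skinEC, and the co-receptor gene Boc at 59.9 RPKM in cTEC against 11.1 in mTEC and 51.5 in skinEC. Gli3 was at 17.02 RPKM in cTEC against 2.73 in mTEC and 11.3 in skinEC. The ligand gene Dhh stood on the other side, at 0.0448 RPKM in cTEC against 18.9 in mTEC and 0.0681 in skinEC. Of 14 members 3 were called higher and 1 lower, but the balance depended on the scale. On the TPM scale the counts were 3 and 3, and with a pseudocount of 0.1 RPKM they were 3 and 4. The receptor and target gene Ptch1 stayed under 4-fold (3.09 RPKM in cTEC against 5.703 in mTEC and 67.3 in skinEC). In the Hippo pathway, which holds the co-activator Yap out of the nucleus, 3 of 26 members were called higher and 0 lower, with a median of 0.61. Yap1 itself was at 69.3 RPKM in cTEC against 12.8 in mTEC and 98.2 in skinEC. The angiomotin gene Amotl1 was at 105 RPKM in cTEC against 10.1 in mTEC and 46.8 in skinEC, and Jub, an adaptor gene, at 62.4 RPKM in cTEC against 14.2 in mTEC and 167 in skinEC. These 3 genes were also higher in skinEC than in mTEC, as were Smo and Boc. Ankrd1, a target gene of Yap, was listed at 0 in cTEC and in skinEC, with 2.42 RPKM in mTEC. Feedback inhibitors of receptor kinases fell on both sides, with 1 of 17 higher and 3 lower. The Sprouty gene Spry1 was at 23.8 RPKM in cTEC against 5.096 in mTEC, and the kinase phosphatase gene Dusp4 at 1.15 RPKM in cTEC against 105 in mTEC.

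Genes of vitamin A handling fell on both sides, with 2 of 19 members called higher and 5 lower. Retinol is carried into cells, stored or oxidised to retinoic acid, which is cleared by the Cyp26 enzymes. Among those higher in cTEC was Dhrs3, which encodes a reductase that turns retinal back to retinol, at 110.4 RPKM in cTEC against 20.7 in mTEC and 26.4 in skinEC. Lower in cTEC were genes of uptake, binding and synthesis. The retinol uptake receptor gene Stra6 was at 1.06 RPKM in cTEC against 59.5 in mTEC and 0.815 in skinEC. Crabp1, a retinoic acid-binding protein gene, was at 0.811 RPKM in cTEC against 71.1 in mTEC and 0.338 in skinEC, and the synthetic enzyme gene Aldh1a2 at 0.07804 RPKM in cTEC against 6.15 in mTEC. The clearing enzyme gene Cyp26a1 was listed at 0 in cTEC and in skinEC, with 57.9 RPKM in mTEC. The receptor genes Rarg (27.1 RPKM in cTEC against 12.1 in mTEC) and Rarb (5.03 RPKM in cTEC against 0.754 in mTEC) were under 4-fold, with their larger value in cTEC.

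Core energy metabolism held few calls. Of 26 genes of the citric acid cycle and pyruvate entry 0 were called higher and 0 lower, with log2 ratios from -0.96 (Pdha1) to 1.89 (Pdk1). In glycolysis 0 of 19 were higher and 2 lower in cTEC, the lower ones being Pfkp (5.25 RPKM in cTEC against 32.7 in mTEC) and Aldoc (2.27 RPKM in cTEC against 12.9 in mTEC). Serine, glycine and one-carbon metabolism had the highest list median, 0.68, with 3 of 19 members higher and 1 lower. Besides Psat1, the folate enzyme gene Aldh1l1 was higher in cTEC, at 116 RPKM in cTEC against 8.56 in mTEC and 5.58 in skinEC. Cth, which encodes the enzyme that makes cysteine from cystathionine, was at 88.9 RPKM in cTEC against 7.25 in mTEC and 3.18 in skinEC. Aldh1l1 and Cth were low in skin and in mTEC alike, whereas Phgdh, the first enzyme gene of serine synthesis, was at a like level in all libraries (111 RPKM in cTEC against 73.9 in mTEC and 134 in skinEC). The glycine-cleaving enzyme gene Gldc was the one lower in cTEC (0.0423 RPKM in cTEC against 4.15 in mTEC). In nucleotide synthesis 1 of 25 was higher and 0 lower, with a median of 0.66. The higher one was the adenosine kinase gene Adk, at 30.5 RPKM in cTEC against 6.17 in mTEC.

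Fatty acid oxidation held calls only on the cTEC side. The lists of fatty acid synthesis, triglyceride storage and cholesterol synthesis held them only on the mTEC side. Shares called lower were 21.1% in fatty acid synthesis, 25% in triglyceride storage and 13% in cholesterol synthesis, against 15.4% of all genes compared. In oxidation 9.52% were called higher, against 2.72% of all genes compared. The carnitine palmitoyltransferase gene Cpt1a, which admits fatty acids to the mitochondrion for oxidation, was at 180.4 RPKM in cTEC against 32.6 in mTEC and 43.9 in skinEC. The thiolase gene Acaa2 was at 72.1 RPKM in cTEC against 16.9 in mTEC and 222 in skinEC. In the oxidation list 2 of 21 members were called higher and 0 lower, with a median of 0.56. In fatty acid synthesis 0 of 19 were higher and 4 lower. Acacb, which encodes the carboxylase whose product inhibits that admission step, was at 0.3103 RPKM in cTEC against 44.6 in mTEC, and the desaturase gene Scd1 was at 2.64 RPKM in cTEC against 55.1 in mTEC. The synthase gene Fasn (86.3 RPKM in cTEC against 29.8 in mTEC) and its regulator Srebf1 (128 RPKM in cTEC against 41.03 in mTEC) had their larger values in cTEC, under 4-fold. Of 16 triglyceride storage genes 0 were higher and 4 lower, led by the acyltransferase gene Dgat2 at 3.31 RPKM in cTEC against 82.8 in mTEC. In cholesterol synthesis 0 of 23 were higher and 3 lower, with the squalene epoxidase gene Sqle even (78.6 RPKM in cTEC against 77.1 in mTEC).

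Metal and nitrogen genes contained some of the widest gaps. In the metal list 3 of 25 members were higher and 8 lower in cTEC. Hamp, the gene of the iron hormone hepcidin, was at 0.179 RPKM in cTEC against 82.8 in mTEC and 0.0909 in skinEC. The metallothionein genes, whose products bind zinc and copper, differed in skin but not in their thymic order. Mt1 was at 17.3 RPKM in cTEC against 225 in mTEC and 279 in skinEC, and Mt3 at 0.525 RPKM in cTEC against 46.8 in mTEC and 0.499 in skinEC. Importers lay on both sides. The zinc importer gene Slc39a4 was at 0.484 RPKM in cTEC against 18.7 in mTEC, opposite to Slc39a8, which imports zinc and manganese, at 34.3 RPKM in cTEC against 4.92 in mTEC and 10.5 in skinEC. Slc11a2, the iron importer gene, was at 52.4 RPKM in cTEC against 11.3 in mTEC and 13.97 in skinEC, and Atp7b, a copper-exporting ATPase gene, at 16.9 RPKM in cTEC against 1.26 in mTEC and 0.0684 in skinEC. Of 17 arginine and polyamine genes 0 were higher and 4 lower. The inducible nitric oxide synthase gene Nos2 was at 0.2701 RPKM in cTEC against 74.01 in mTEC. The arginase gene Arg2 was at 0.898 RPKM in cTEC against 58.05 in mTEC, and Arg1 at 2.97 RPKM in cTEC against 18.4 in mTEC. Sat1, which encodes a spermidine acetyltransferase, was at 15.3 RPKM in cTEC against 113 in mTEC. The ornithine decarboxylase gene Odc1, the entry to polyamines, was even (73.5 RPKM in cTEC against 68.3 in mTEC).

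Lists of stress genes differed among themselves. Fgf21, a hormone gene induced by amino acid shortage and other stress, was at 6.75 RPKM in cTEC against 225 in mTEC and 0.227 in skinEC. Nupr1, a stress-induced chromatin protein gene, was at 9.31 RPKM in cTEC against 157 in mTEC and 22.2 in skinEC. Their list had 0 of 16 members higher and 4 lower, while its central regulator Atf4 was at 101 RPKM in cTEC against 82.3 in mTEC and the asparagine synthetase gene Asns at 35.8 RPKM in cTEC against 21.4 in mTEC. Of 24 genes of the unfolded protein response 0 were higher and 2 lower, and the summed level of the list was 2753 RPKM in cTEC against 5006 in mTEC. The chaperone genes Hsp90b1 (389 RPKM in cTEC against 1044 in mTEC) and Calr (584 RPKM in cTEC against 1115 in mTEC) made up much of both sums and stayed under 4-fold. Herpud1, a gene of the degradation of misfolded proteins, was lower in cTEC, at 20.2 RPKM in cTEC against 118 in mTEC.

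In the secretory route, the coat list had 2 of 24 members higher (8.33%) and 1 lower (4.17%). Of these called members, Creb3l2 and Creb3l3 are transcription factor genes, so that Copz2 was the only coat gene called. Signal peptide and translocation genes had 1 of 22 higher and 1 lower (4.55% each). The shares of all genes compared were 2.72% higher and 15.4% lower. The coatomer gene Copz2 was at 103 RPKM in cTEC against 19.1 in mTEC, and the signal recognition particle gene Srp68 at 207 RPKM in cTEC against 46.05 in mTEC. Creb3l2, a transcription factor gene of secretory cells, was at 62.5 RPKM in cTEC against 14.4 in mTEC, opposite to its relative Creb3l3 at 0.0697 RPKM in cTEC against 4.35 in mTEC. Peptide processing had 1 of 20 higher (5%) and 4 lower (20%). The convertase gene Pcsk6, whose product activates secreted precursors, was at 28.5 RPKM in cTEC against 1.81 in mTEC, and the secretory granule gene Scg5 at 1.32 RPKM in cTEC against 37.4 in mTEC. Of 35 lysosomal genes 2 (5.71%) were higher and 4 (11.4%) lower, the latter under the share of all genes compared. Lamp2, a membrane protein gene, was one of those higher, at 506 RPKM in cTEC against 123 in mTEC. Gusb, the glucuronidase gene, was at 11.9 RPKM in cTEC against 113 in mTEC, and the cholesterol carrier gene Npc2 at 45.4 RPKM in cTEC against 255 in mTEC. Endocytic receptors and clathrin adaptors had 0 of 23 members higher and 3 (13%) lower. The lower ones included the macrophage scavenger receptor gene Marco, listed at 0 in cTEC with 12.4 RPKM in mTEC.

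Shares called lower in cTEC were 45.2% of calcium genes and 30% of G protein regulators, against 15.4% of all genes compared. Purine genes (17.6%) and sphingosine and lysophosphatidic acid genes (15.8%) lay near that share. Of 31 calcium genes 1 was called higher and 14 lower, with a median of -1.07, and 14 stayed within 2-fold. The calcium pump gene Atp2a3 was at 4.52 RPKM in cTEC against 305 in mTEC and 1.05 in skinEC, beside its even relative Atp2a2 (78.3 RPKM in cTEC against 95.7 in mTEC and 96.4 in skinEC). The calcium-binding protein genes S100g (8.69 RPKM in cTEC against 159 in mTEC) and Calb2 (0.03704 RPKM in cTEC against 26.3 in mTEC) were lower in cTEC, and the kinase gene Camk4 was the one higher (32.1 RPKM in cTEC against 4.07 in mTEC). Of 30 regulators of G protein signalling, cyclases and related genes 0 were higher and 9 lower. Rgs13 was at 2.51 RPKM in cTEC against 77.4 in mTEC, and Rgs5 at 8.01 RPKM in cTEC against 114 in mTEC. The adenylyl cyclase gene Adcy5 was at 0.342 RPKM in cTEC against 23.3 in mTEC. Pericytes are known for Rgs5, and their list had 0 of 9 members higher and 3 lower in cTEC, with a summed level of 140.2 RPKM in cTEC against 249 in mTEC. Their part was not tested. Purine signalling genes (0 of 17 higher, 3 lower) included the channel gene P2rx4 (8.88 RPKM in cTEC against 98.1 in mTEC). Sphingosine and lysophosphatidic acid genes had 1 of 19 higher and 3 lower. The sphingosine phosphate receptor gene S1pr3 was higher in cTEC (109.8 RPKM in cTEC against 18.7 in mTEC and 0.0918 in skinEC), while the lyase gene Sgpl1, which degrades that lipid, was high in both (298 RPKM in cTEC against 369 in mTEC).

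Complement and coagulation genes, best known from liver and blood, were called lower in cTEC more often than all genes compared. The shares lower were 40.7% and 44.4%, against 15.4%, and the shares higher 0% and 11.1%, against 2.72%. Of 27 complement genes compared 0 were higher and 11 lower. The complement list of 31 genes summed to 84.7 RPKM in cTEC against 752 in mTEC and 61.7 in skinEC. Clu, the clusterin gene (24.9 RPKM in cTEC against 344 in mTEC and 18.02 in skinEC), and the central component gene C3 (6.92 RPKM in cTEC against 166 in mTEC and 0.436 in skinEC) made up most of the mTEC sum. C1qb, a gene used by macrophages, was at 0.2997 RPKM in cTEC against 27.3 in mTEC. Of 27 coagulation genes compared 3 were higher and 12 lower. The summed level of the coagulation list of 30 genes was even, at 544 RPKM in cTEC against 529 in mTEC. The fibrinogen genes Fgg (0.0928 RPKM in cTEC against 25.3 in mTEC) and Fgb (0.0337 RPKM in cTEC against 16.4 in mTEC) were lower in cTEC, and the genes higher there act against clotting or sense thrombin. Besides Pros1, they were the thrombomodulin gene Thbd, at 14.7 RPKM in cTEC against 1.59 in mTEC and 1.62 in skinEC, and the thrombin receptor gene F2r, at 22.2 RPKM in cTEC against 4.59 in mTEC and 21.1 in skinEC. In the erythroid and platelet list 0 of 11 members were higher and 4 lower, with a summed level of 5.94 RPKM in cTEC against 51.1 in mTEC, and the part of platelets was not tested. Of 26 genes that sense nucleic acids 0 were higher and 4 (15.4%) lower, the latter being the share of all genes compared. Tmem173, the STING gene, was at 6.85 RPKM in cTEC against 114 in mTEC and 3.06 in skinEC, and the RNA sensor gene Ifih1 at 19.6 RPKM in cTEC against 18.95 in mTEC and 1.81 in skinEC.

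Some adhesion and trafficking genes of polarised epithelium were lower in cTEC. Shares lower were 33.3% of tetraspanins and partners, 25% of Rab and myosin motor genes and 24.1% of immunoglobulin superfamily genes, against 15.4% of all genes compared. In the same order, shares higher were 3.33%, 0% and 0%, against 2.72%. Tetraspanins and their partners had 1 of 30 members higher and 10 lower. Tspan1 was at 1.18 RPKM in cTEC against 72.7 in mTEC, and Tspan8 at 3.01 RPKM in cTEC against 99.3 in mTEC. Tspan9 was the exception, at 82.2 RPKM in cTEC against 4.94 in mTEC and 67.7 in skinEC. Of 28 Rab and myosin motor genes 0 were higher and 7 lower. The recycling GTPase gene Rab25 was at 1.47 RPKM in cTEC against 101 in mTEC and 117 in skinEC, as high in skin as in mTEC. The brush border motor gene Myo1a was at 0.385 RPKM in cTEC against 29.4 in mTEC and 0.336 in skinEC. Adhesion genes of the immunoglobulin superfamily had 0 of 29 higher and 7 lower. The junction molecule gene F11r was at 29.2 RPKM in cTEC against 215 in mTEC, and the neural adhesion gene L1cam at 0.662 RPKM in cTEC against 25.7 in mTEC. Madcam1, the mucosal addressin gene, was at 0.0871 RPKM in cTEC against 39.97 in mTEC. Vcam1 (204 RPKM in cTEC against 105 in mTEC) and Alcam (150.3 RPKM in cTEC against 55.1 in mTEC) had their larger value in cTEC, under 4-fold.

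Contractile and actin lists held called genes on both sides. Shares lower were 17.9% of contractile genes, 17.9% of actin organisers and 26.1% of tubulin and microtubule genes, against 15.4% of all genes compared. In the same order, shares higher were 10.7%, 5.13% and 0%, against 2.72%. Contractile genes had 3 of 28 higher and 5 lower. The myosin kinase gene Mylk was at 65.8 RPKM in cTEC against 6.32 in mTEC and 0.397 in skinEC, and the filamin gene Flna at 369.5 RPKM in cTEC against 71.6 in mTEC and 179 in skinEC. Among the genes of non-muscle myosin, Myh10 was at 40.7 RPKM in cTEC against 6.84 in mTEC, Myh14 at 3.14 RPKM in cTEC against 25.7 in mTEC and Myh9 at 163 RPKM in cTEC against 152 in mTEC, so that 1 stood on each side and 1 was even. Of 39 actin organisers 2 were higher and 7 lower. The Arp2/3 activator gene Wasf1 was at 14.02 RPKM in cTEC against 1.51 in mTEC, and the formin gene Fmnl3 at 43.97 RPKM in cTEC against 8.44 in mTEC. On the mTEC side, the microvillus gene Vil1 was at 0.351 RPKM in cTEC against 25.2 in mTEC, and the bundling gene Fscn1 at 14.2 RPKM in cTEC against 168 in mTEC. The exchange factor gene Dock8 was at 31.8 RPKM in cTEC against 3.94 in mTEC. Genes known from blood cells stood opposite. Rac2 was at 1.95 RPKM in cTEC against 106 in mTEC, its activator Vav1 at 1.52 RPKM in cTEC against 56.3 in mTEC and the actin bundler gene Lcp1 at 6.52 RPKM in cTEC against 156 in mTEC. The myeloid marker sums of 118 RPKM in cTEC against 1036 in mTEC stand beside them, and the part of leukocytes was not tested. Of 23 tubulin and microtubule genes 0 were higher and 6 lower, with Tuba1a at 36.8 RPKM in cTEC against 211 in mTEC.

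Secreted matrix regulators included abundant cTEC-side genes. In the proteoglycan list 3 of 41 members (7.32%) were higher and 6 (14.6%) lower, against 2.72% and 15.4% of all genes compared. Spock2 was at 265 RPKM in cTEC against 33.5 in mTEC and 2.39 in skinEC, opposite to its relative Spock3 at 3.01 RPKM in cTEC against 61.01 in mTEC, which was listed at 0 in skinEC. Sulf1, which encodes a sulfatase that edits heparan sulfate, was at 93.9 RPKM in cTEC against 16.01 in mTEC and 0.187 in skinEC. The hyaluronan synthase genes split, with Has3 at 11.2 RPKM in cTEC against 1.796 in mTEC and Has2 at 0.225 RPKM in cTEC against 14.5 in mTEC. Of 36 matricellular and elastic fibre genes 4 (11.1%) were higher and 7 (19.4%) lower. Ltbp3, whose product anchors latent TGF-beta, was at 127 RPKM in cTEC against 14.7 in mTEC and 64.1 in skinEC, and its relative Ltbp2 at 3.94 RPKM in cTEC against 35.8 in mTEC and 2.04 in skinEC. The elastic fibre gene Efemp2 was at 53.4 RPKM in cTEC against 5.02 in mTEC and 5.57 in skinEC, and the thrombospondin gene Thbs2 at 61.7 RPKM in cTEC against 8.79 in mTEC and 3.68 in skinEC. Spp1, the osteopontin gene, had the largest ratio toward mTEC of the list, at 0.7302 RPKM in cTEC against 73.7 in mTEC and 0.12 in skinEC. Fibroblast markers lay on both sides. Dpt was at 25.3 RPKM in cTEC against 0.981 in mTEC, and Twist2 at 12.1 RPKM in cTEC against 0.1099 in mTEC. Col1a1 was at 3.61 RPKM in cTEC against 34.5 in mTEC, Pdgfrb at 1.29 RPKM in cTEC against 12.8 in mTEC, and Pdgfra was under 1 RPKM in both (0.338 RPKM in cTEC against 0.639 in mTEC). The part of fibroblasts in the matrix values was not tested.

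Of the transcription factor lists, all but the clock list held called genes of both directions. Shares called lower were 13% of Kruppel-like and Sp genes, 39.1% of Ets genes and 22.6% of basic helix-loop-helix and Id genes. They were 18.9% of zinc finger and related genes and 21.1% of clock genes, against 15.4% of all genes compared. In the same order, shares called higher were 4.35%, 4.35%, 9.68%, 8.11% and 0%, against 2.72%. In the Kruppel-like and Sp list 1 of 23 was higher and 3 lower. Opposite to Klf15 stood Klf4, at 2.46 RPKM in cTEC against 46.4 in mTEC and 149.5 in skinEC, and Klf5, at 2.499 RPKM in cTEC against 23.7 in mTEC and 104 in skinEC, both genes of differentiating epithelium. Ets genes had 1 of 23 higher and 9 lower. Etv5, a factor gene induced by receptor kinase signals, was at 20.01 RPKM in cTEC against 1.995 in mTEC. The epithelial factor gene Ehf was at 2.56 RPKM in cTEC against 69.5 in mTEC, and Elf3 at 5.87 RPKM in cTEC against 93.2 in mTEC. Of 31 basic helix-loop-helix and Id genes 3 were higher and 7 lower. Hes6, a gene of the Hairy and Enhancer of Split family, was at 490.3 RPKM in cTEC against 110.2 in mTEC and 10.4 in skinEC. Id2, an inhibitor of such factors, was at 2.67 RPKM in cTEC against 33.3 in mTEC. Of 37 zinc finger and related regulators 3 were higher and 7 lower. Bcl11a was at 20.2 RPKM in cTEC against 2.97 in mTEC and 47.3 in skinEC, and Snai2 at 42.5 RPKM in cTEC against 8.35 in mTEC and 34.4 in skinEC, both also high in skin. Insm1, a factor gene of neuroendocrine cells, was at 0.146 RPKM in cTEC against 55.04 in mTEC and 1.32 in skinEC, and Runx3 at 0.213 RPKM in cTEC against 26.2 in mTEC and 0.248 in skinEC. In the circadian clock list 0 of 19 were higher and 4 lower. Npas2 was at 0.837 RPKM in cTEC against 27.03 in mTEC, and Clock, whose product it can replace, at 11.01 RPKM in cTEC against 6.002 in mTEC.

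Of 36 cell death genes 0 were called higher and 8 (22.2%) lower in cTEC. The shares of all genes compared were 2.72% higher and 15.4% lower. The p53-induced death gene Pmaip1 was at 0.632 RPKM in cTEC against 52.1 in mTEC, and Bik, a killer gene of the same family, at 0.468 RPKM in cTEC against 39.3 in mTEC. The death receptor gene Fas was at 2.303 RPKM in cTEC against 48.5 in mTEC. Bcl2, a protective gene, had its larger value in cTEC (14.6 RPKM in cTEC against 3.68 in mTEC), under 4-fold. Bcl2a1b (0.555 RPKM in cTEC against 97.9 in mTEC) has close copies, so its value is uncertain. Of 21 p53 target genes 1 (4.76%) was higher and 4 (19%) lower. The growth arrest gene Cdkn1a was at 11.4 RPKM in cTEC against 126 in mTEC and 108 in skinEC, and Gdf15, a stress cytokine gene, at 0.0326 RPKM in cTEC against 30.2 in mTEC and 0.132 in skinEC. Sesn1 was the one on the cTEC side, at 39.2 RPKM in cTEC against 8.32 in mTEC and 20.2 in skinEC, and Trp53 itself was under 4-fold (127 RPKM in cTEC against 71.1 in mTEC). Of 16 immediate early and heat shock genes, which respond to cell handling, 0 were higher and 1 lower, with a median of 0.16, and Fos was at 132 RPKM in cTEC against 68.01 in mTEC.

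Genes of RNA synthesis were mostly even. In the list of polymerase II pausing, elongation and topoisomerases, 1 of 33 members was higher (3.03%) and 2 lower (6.06%). The higher one, Xrcc5, and Sirt1 among the lower ones are genes of other nuclear functions. The elongation factor gene Ell3 (0.9605 RPKM in cTEC against 9.47 in mTEC) was the other lower one. Xrcc5, which encodes the Ku80 subunit of DNA end binding, was at 103 RPKM in cTEC against 11.8 in mTEC and 30.6 in skinEC, while its partner gene Xrcc6 was at 24.3 RPKM in cTEC against 12.6 in mTEC and 32.8 in skinEC. Sirt1, a deacetylase gene, was at 9.64 RPKM in cTEC against 99.6 in mTEC and 10.7 in skinEC. Sirt1 was thus higher in mTEC than in both other epithelia, and Xrcc5 was highest in cTEC. Among 17 long noncoding RNAs 1 was higher and 2 lower. Neat1, the scaffold RNA of paraspeckles, was at 56.5 RPKM in cTEC against 548 in mTEC and 21.2 in skinEC. Malat1, which is transcribed from the adjacent locus, was at 155 RPKM in cTEC against 202 in mTEC and 30.4 in skinEC. Snhg11 was the one higher in cTEC (61.9 RPKM in cTEC against 2.91 in mTEC and 0.0153 in skinEC). Of 33 RNA-binding genes 0 were higher and 3 lower, led by Msi1 (17.8 RPKM in cTEC against 119 in mTEC) and Celf3 (1.77 RPKM in cTEC against 26.6 in mTEC). Of 14 germline genes 0 were higher and 7 lower, with the egg coat gene Zp2 at 0.0964 RPKM in cTEC against 47.6 in mTEC.

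Some gene families held called genes on both sides. Grouping the genes by the stem of their symbol, a rough grouping made after the values were seen, gave 2042 stems with more than 1 gene in the comparison. In 102 of them at least 1 gene was called higher and at least 1 lower in cTEC, and in 57 of them both reached 20 RPKM in their higher library. The pairs that follow were picked after their values were seen. Kcnk6, a relative of Kcnk2, was at 1.31 RPKM in cTEC against 37.7 in mTEC. The metalloproteinase gene Mmp9 was at 217 RPKM in cTEC against 39.4 in mTEC, and Mmp7 at 0.141 RPKM in cTEC against 23.04 in mTEC. Opposite to Cdh4, the gut cadherin gene Cdh17 was at 0.107 RPKM in cTEC against 51.05 in mTEC. Of the delta-like genes, Dlk2 was at 63.4 RPKM in cTEC against 6.28 in mTEC and Dlk1 at 0.204 RPKM in cTEC against 20.5 in mTEC. The fibroblast growth factor receptor gene Fgfr2 was at 87.2 RPKM in cTEC against 14.5 in mTEC, and Fgfr3 at 0.576 RPKM in cTEC against 9.43 in mTEC. The spectrin gene Spnb2 was at 218 RPKM in cTEC against 35.4 in mTEC, and Spnb3 at 0.893 RPKM in cTEC against 28.8 in mTEC. Other genes of the Mmp, Cdh and Kcnk stems were called as well, among them Mmp2.

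The remaining lists held few calls on the cTEC side. Hypoxia target genes had 0 of 17 higher and 4 lower, and the oxygen-regulated factor gene Hif1a was at 96.7 RPKM in cTEC against 39.8 in mTEC. Genes of the pentose phosphate pathway and NADPH supply had 0 of 10 higher and 1 lower, the malic enzyme gene Me1 (9.03 RPKM in cTEC against 53.97 in mTEC) being the lower one. Guidance factors of the Slit, netrin and neurotrophin families had 0 of 27 higher and 7 lower, among them the repellent gene Slit1 (0.132 RPKM in cTEC against 14.7 in mTEC). Endothelial markers had 0 of 13 higher and 2 lower, with Pecam1 at 6.34 RPKM in cTEC against 4.55 in mTEC. Among all genes compared 2.72% were higher and 15.4% lower.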

How the data were processed

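The deposited workbook gave RPKM per gene for 1 library per population, made by the authors, per the file headers. CASAVA 1.8.2 and the build mm9 appear, without a role, in the submitters' processing notes. For the aligner, annotation and strandedness, details were not given in the sources used here. No count of reads was at hand, so the depth was read from the step size of low chemosensory receptor genes. Their coding lengths came from GENCODE M21, and 65.2% of cTEC and 75.4% of mTEC values came out whole within 0.02 reads, so depths are approximate. The search was tested on simulated data with exact lengths and whole counts, so that test does not cover lengths from a later annotation. Sequence-read floors cover counting error only.

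For the 47 symbols on more than 1 row the row of largest sum was used, and 11 symbols turned into dates stay unnamed. Ratios are log2((RPKM + 1) / (RPKM + 1)), cTEC over mTEC, for genes at 1 RPKM or more in either library, called from 4-fold. No test was possible with 1 library a side. Members and gene lists were chosen with earlier results of these data known. Of 1531 symbols written, 3 had no row and 27 matched through a current symbol or synonym. Genes are named by size: the 20 largest ratios a side at 20 RPKM or more without the best known markers, provisional and small RNA entries; per list the 4 largest ratios a side, the 2 most abundant of each library and the member nearest 0, with lists of up to 20 members open in full; the 8 most abundant genes whose values differ by at most 25%; and the longest runs of neighbours. Marker and receptor genes named as listed at 0 or under 4-fold beyond this rule, and the family pairs, were picked after their values were seen. Some genes and 1 list are counted but not reported by name here. Promoter windows and gene order are from RefSeq GRCm38.p6. Pandas 2.3.3, numpy 2.4.6 and matplotlib 3.10.9 were used under Python 3.11.15. Alternatives changed the pseudocount, filter, scaling, fold, rows per symbol and gene classes.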

Additional observations from a re-analysis of the deposited data

How the results depend on the processing

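Under the 2-fold rule 1834 genes were higher and 5203 lower in cTEC, and with a pseudocount of 5 RPKM 221 were higher and 881 lower. A pseudocount of 0.1 RPKM gave 625 higher and 4517 lower, and a filter at 10 RPKM gave 414 higher and 1439 lower. The other settings kept both counts within 1.5 times of 454 and 2569: no filter, a TPM scale (541 and 3612), scaling by the median ratio of genes at 10 RPKM or more in both (337 and 3045), summed rows, and leaving out small RNA and provisional entries (406 and 2376). Of the called genes, between 9.96% (median ratio scaling) and 22.3% (filter at 10 RPKM) were higher in cTEC, against 15% on the scale used above, and 26.1% at 2-fold. Median ratio scaling moved the median log2 ratio of all genes to -0.35, against -0.07, so that ratios near 0 read as even above would lean to mTEC by that shift. Of 317 genes called that the naming rule takes, 0 changed sign under any of these settings at 4-fold, 124 came under 4-fold with a pseudocount of 5 RPKM and 20 under median ratio scaling. They included Acaa2, Adk, Creb3l2, Egfr, F2r, Fbln1, Fmnl3, Has3, Hes6, Jub, Lamp2, Pros1, Sesn1, Slc11a2, Snai2, Spry1, Srp68 and Tcf4. More members lower than higher were found in 56 of 64 lists and equal counts in 2, against 38 and 18 with a pseudocount of 5 RPKM and 51 and 7 with a filter at 10 RPKM. With that pseudocount contractile genes (2 higher and 1 lower) and sphingosine genes (1 and 0) turned to cTEC. The coat list, with its Creb3 factor genes (1 and 1), and nucleotide synthesis (0 and 0) evened out under median ratio scaling. With genes from 1 RPKM the promoter medians were 0.684 for higher, 0.313 for lower and 0.747 for other genes. No paired analysis was possible because each population has 1 library.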
